A study of Homo sapiens with 4 samples.

Results

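Steroid receptors act through partner proteins, and the genes described here encode 9 of the partners known for the androgen receptor, the hormone-activated transcription factor that drives prostate epithelial cells. The members were given by symbol: FOXA1, HOXB13, GATA2, NR3C1, GRHL2, NCOA2, NCOR1, EP300 and FKBP4. Of these, 8 had a probe set annotated with their symbol alone, with 1 probe set for each, among 18417 genes measured on the arrays. No probe set was matched to NCOR1, the nuclear receptor corepressor, and it is not analysed here, nor is the receptor's own gene.

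The study used 4 Affymetrix whole-transcript arrays, 1 for each group, on human prostate cancer cells. LNCaP is an androgen-responsive line, here held for 24 h without phenol red in 2.5% serum stripped by charcoal, and LTAD is a subline taken from it by long growth without androgen, kept likewise in 10% stripped serum. The LTAD arrays were from untransfected cells, cells given a control siRNA (siControl) and cells given an siRNA against PSF (siPSF), an RNA-binding protein encoded by SFPQ. Line and serum content differ together between LNCaP and LTAD and cannot be told apart, and all 4 groups were in stripped serum. Every group had 1 array, so every difference below is between single arrays, has no error or test, and may hold technical as well as biological variation. A single array per group limits precision for all members.

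In the unliganded state the androgen receptor is held by HSP90 with cochaperones such as the immunophilin FKBP4. On hormone binding it enters the nucleus and binds DNA at sites that the forkhead factor FOXA1, and in prostate also HOXB13, GATA2 and GRHL2, help to open or mark. There it recruits coactivators of the p160 family such as NCOA2 and the acetyltransferase EP300, and corepressors such as NCOR1 oppose them. NR3C1, the glucocorticoid receptor, recognises much the same DNA element, and its rise is a known route by which prostate cancer cells escape loss of androgen receptor signalling.

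Values are log2 probe set levels. Deposited values of transfected and untransfected arrays lay on different scales, the array medians being 6.91 in LNCaP, 7.20 in untransfected LTAD, 5.98 in siControl and 6.04 in siPSF. SiPSF was therefore compared with siControl on deposited values, and the other comparisons were made after quantile normalization, which gives the 4 arrays the same distribution. A filter value of 7.24, the midpoint of all deposited gene levels, had to be met on 1 or more arrays, and 11049 genes met it and are called kept genes. SFPQ, the siRNA target, read 9.46 with siPSF and 10.91 with siControl as deposited, and 11.25 and 11.12 in untransfected LTAD and LNCaP. After quantile normalization these were 9.87, 11.23, 10.82 and 10.83. The siControl reading was thus below untransfected LTAD and LNCaP as deposited and above both after normalization.

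Start-site sequence was at hand for FOXA1 and GATA2, the pioneer factors of this group that showed, respectively, one of the smaller and one of the larger spreads over the arrays. The 250 bases before each RefSeq start (build GRCh38.p14, minus strand, printed 5′ to 3′) are shown with capitals marking a motif match on either strand. The motifs were those of forkhead factors (TGTTTAC, and the variant TGTTTGC), of GATA factors (AGATAA, and the variant TGATAA), of grainyhead factors (AACCGGTT) and the half-site of steroid receptors (AGAACA), with overlaps allowed. FOXA1 lies on chromosome 14 (chr14:37595250-37595499), and GATA2 has a start nearer the gene body (chr3:128488531-128488780) and a farther one (chr3:128493202-128493451).
FOXA1: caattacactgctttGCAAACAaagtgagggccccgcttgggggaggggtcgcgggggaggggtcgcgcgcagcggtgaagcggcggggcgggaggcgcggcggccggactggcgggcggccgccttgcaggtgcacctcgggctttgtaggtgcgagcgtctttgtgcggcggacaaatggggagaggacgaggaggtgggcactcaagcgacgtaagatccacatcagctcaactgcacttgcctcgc
GATA2 nearer start: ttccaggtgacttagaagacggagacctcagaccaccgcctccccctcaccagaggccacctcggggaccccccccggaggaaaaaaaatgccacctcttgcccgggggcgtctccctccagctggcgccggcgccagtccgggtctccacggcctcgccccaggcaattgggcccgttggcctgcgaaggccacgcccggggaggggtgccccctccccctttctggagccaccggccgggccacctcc
GATA2 farther start: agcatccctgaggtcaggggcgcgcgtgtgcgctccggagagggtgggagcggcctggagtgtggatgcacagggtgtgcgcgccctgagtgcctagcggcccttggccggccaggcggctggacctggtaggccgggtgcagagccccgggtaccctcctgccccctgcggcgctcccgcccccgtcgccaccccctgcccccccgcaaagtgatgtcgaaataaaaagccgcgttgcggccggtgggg

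The FOXA1 window held 1 forkhead match, on the reverse strand with its first printed base 235 bases before the start, and none of the other motifs. Of 35116 windows of that length, 6.09% held a forkhead match, 14.6% a GATA match, 12.4% a half-site and 0.117% the grainyhead motif. Neither GATA2 window held any of the 4 motifs, and of 7 windows for NR3C1, 1 held a forkhead match, 59 bases before its start. The windows were 67.2% G or C for FOXA1 and 71.2% and 72.8% for GATA2, against a median of 58% over all windows. A match describes these letters only and was not tested as a binding site.

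**Figure D1:**
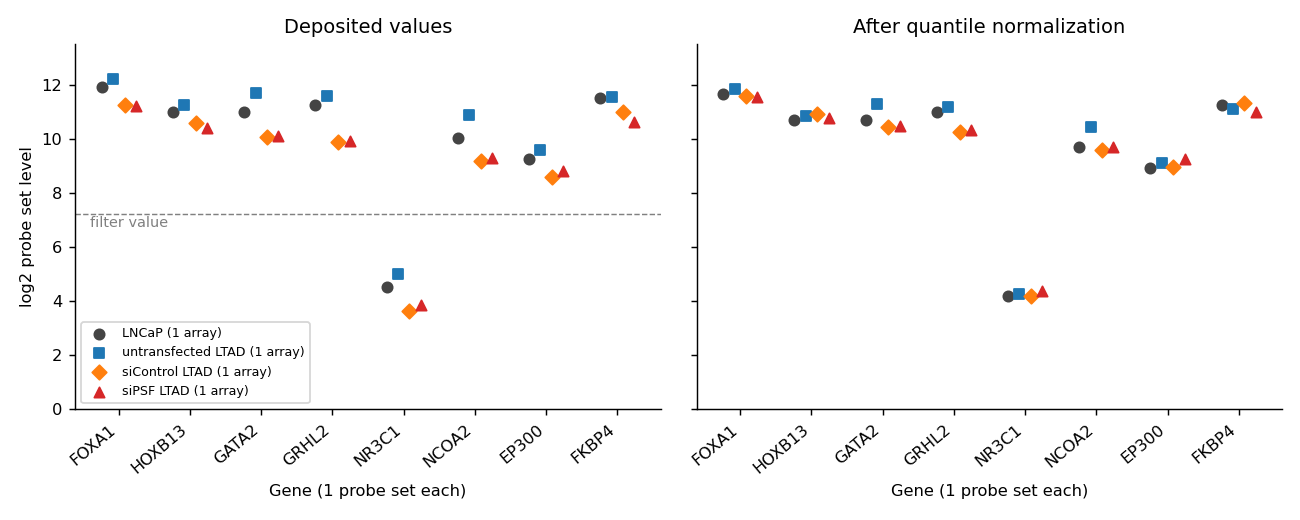
Level (log2, vertical axis) of the 8 measured genes on each of the 4 arrays, as deposited (left, with the filter value dashed) and after quantile normalization (right); each point is 1 array. NR3C1 lies under the filter value on every array, and after normalization GATA2, GRHL2 and NCOA2 spread over 0.84, 0.94 and 0.86 while the others spread over 0.18 to 0.31.

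FOXA1 and HOXB13, the lineage factors of prostate luminal cells, were close on all 4 arrays after quantile normalization, though HOXB13 was less so with array medians subtracted. FOXA1, a forkhead pioneer factor, had a deposited level of 11.91 in LNCaP, 12.21 in untransfected LTAD, 11.25 in siControl and 11.22 in siPSF. After normalization its levels were 11.64, 11.83, 11.57 and 11.55 in that order, a range of 0.28. Untransfected LTAD was highest on either scale, and the 2 transfected arrays were nearly level with each other. HOXB13, a homeobox factor of the prostate, read 10.99 in LNCaP, 11.26 in untransfected LTAD, 10.58 in siControl and 10.42 in siPSF as deposited. Its normalized levels were 10.70, 10.83, 10.93 and 10.78, a range of 0.22. The order of the arrays for HOXB13 changed between scales, siControl being second lowest as deposited and highest after normalization, so no order can be read. With array medians subtracted, siControl exceeded LNCaP by 0.52 and untransfected LTAD by 0.53 for HOXB13.

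GATA2 and GRHL2 stood higher in the untransfected LTAD array than in either transfected one. GATA2, a zinc finger factor of the GATA family, had deposited levels of 10.97 in LNCaP, 11.68 in untransfected LTAD, 10.08 in siControl and 10.10 in siPSF. After normalization these were 10.68, 11.30, 10.45 and 10.48. GRHL2, a grainyhead factor of epithelial identity, had deposited levels of 11.26, 11.58, 9.87 and 9.92, and normalized levels of 10.98, 11.18, 10.23 and 10.31, in the same order of arrays. For GRHL2, LNCaP and untransfected LTAD were the high arrays and siControl and siPSF the low ones on both scales, and for GATA2 LNCaP lay between them.

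NR3C1 read low on every array. Its deposited levels were 4.54 in LNCaP, 4.99 in untransfected LTAD, 3.64 in siControl and 3.85 in siPSF, under each array's lower quartile of 5.10, 5.47, 4.11 and 4.17. Normalized levels were 4.20, 4.26, 4.19 and 4.37, a range of 0.18. Without a detection call, such readings cannot be told from background, so NR3C1 is given no fold. NR3C1 is the 1 measured member that did not pass the filter, against 7 that did on all 4 arrays.

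Of the coregulators, NCOA2 varied and EP300 did not vary much. NCOA2, the p160 coactivator also called GRIP1 or TIF2, had deposited levels of 10.01 in LNCaP, 10.89 in untransfected LTAD, 9.18 in siControl and 9.29 in siPSF. Normalized, these were 9.70, 10.44, 9.58 and 9.71. Untransfected LTAD was the single high array for NCOA2, and the other 3 lay within 0.13 of one another. EP300, the acetyltransferase p300, had deposited levels of 9.27, 9.59, 8.57 and 8.81 in the same order, and normalized levels of 8.94, 9.09, 8.97 and 9.25. FKBP4, the cochaperone, had deposited levels of 11.50, 11.53, 10.99 and 10.63, and normalized levels of 11.24, 11.10, 11.31 and 11.00. The siPSF array was highest for EP300 after normalization and lowest for FKBP4 on both scales.

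**Figure D2:**
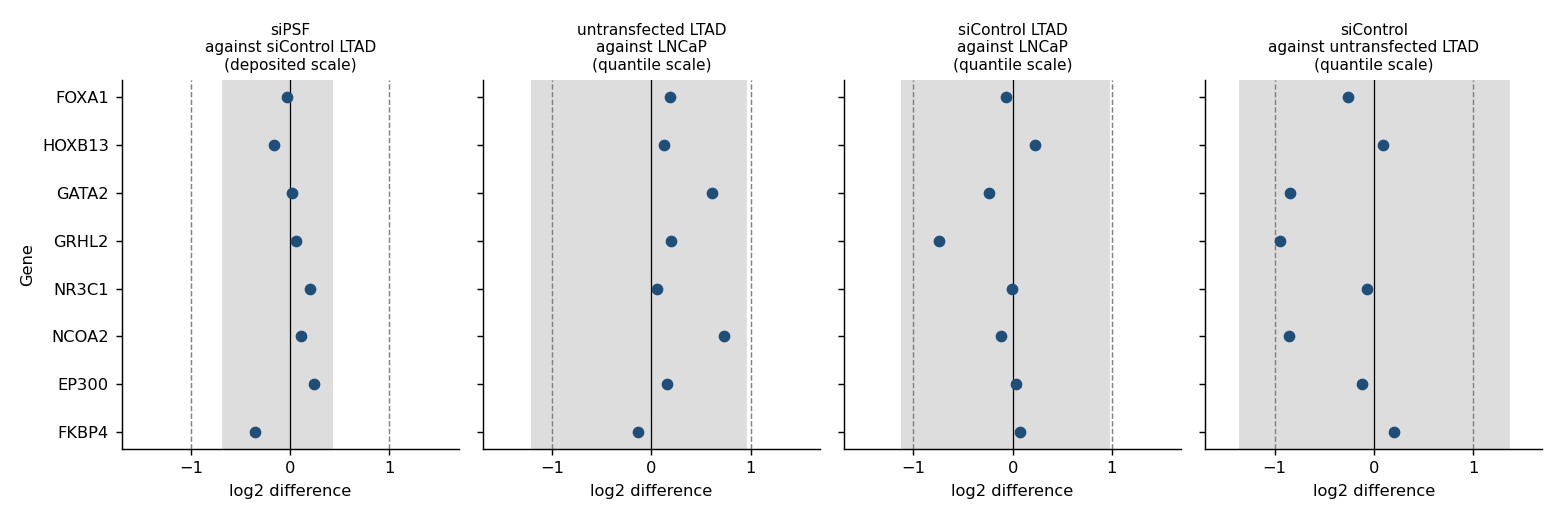
Log2 difference (horizontal axis) of each measured gene (vertical axis) in 4 comparisons of single arrays; the grey band holds the central 95% of the 11049 kept genes, the solid line is 0 and dashed lines mark 2-fold. All 8 genes lie inside the band in each comparison, and GATA2, GRHL2 and NCOA2 lie farthest left in siControl against untransfected LTAD.

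The knockdown comparison asked whether loss of PSF in the castration-resistant model shifts the genes through which the androgen receptor works. None of the 8 measured members was 2-fold or even 1.5-fold apart between siPSF and siControl. At 2-fold, 0.0724% of kept genes were higher and 0.733% lower, and at 1.5-fold 0.806% and 3.44%, so a count of 0 among 8 is near that background. The median difference of the members was 0.04, against -0.02 for all kept genes, with 5 above 0 and 3 below. With array medians subtracted, 3 were above 0 and 5 below, since GATA2 and GRHL2 turned to the negative side of 0.

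FKBP4 had the largest difference with siPSF, -0.36 (1.28-fold lower), and 14.5% of kept genes differed by at least that much in either direction. EP300 differed by 0.24 and NR3C1 by 0.20, the latter among readings that may be background. HOXB13 differed by -0.16, NCOA2 by 0.11, GRHL2 by 0.06, FOXA1 by -0.03 and GATA2 by 0.02. For FOXA1 and GATA2, 88.8% and 92.1% of kept genes lay at least as far apart as they did. With untransfected LTAD in place of siControl, FKBP4 differed by -0.11 and EP300 by 0.15 after normalization, but GRHL2 by -0.87, GATA2 by -0.82 and NCOA2 by -0.73. The nearness of these last 3 to 0 was thus seen with the siControl array and not with the untransfected one.

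Of the 8 lists of genes that work with or around steroid receptors, 150 genes were kept, members included. In siPSF against siControl none of these was 2-fold higher and 3 were 2-fold lower, beside 0.0724% and 0.733% of all kept genes. NFIA, a nuclear factor I protein, read 9.10 with siPSF and 10.27 with siControl (2.25-fold lower). ETV1, an ETS factor, read 9.14 against 10.24 (2.15-fold lower). THRB, a thyroid hormone receptor, read 6.81 against 8.14, the first of these under the filter value. Against untransfected LTAD, NFIA and THRB differed by -1.42 and -1.48 after normalization, and ETV1 by -0.999, just under 2-fold.

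The 3 lower genes are long, and so are some members. NFIA spans 386 kb, THRB 379 kb and ETV1 100.2 kb in the RefSeq table of GRCh38.p14. Among kept genes with a length, the 2209 of at least 85.4 kb had a median difference of -0.10, with 64.3% below 0 and 3.30% at least 2-fold lower. Over the other genes these were -0.01, 51.5% and 0.0906%. NCOA2 at 347 kb, GRHL2 at 189 kb and EP300 at 87.5 kb belong to the long kept genes, and all 3 had differences above 0 on the deposited scale, with GRHL2 just below 0 after median subtraction. NR3C1 spans 158 kb but was not kept. HOXB13 at 3.99 kb, FOXA1 at 5.70 kb, FKBP4 at 10.5 kb and GATA2 at 13.8 kb are short, and FKBP4 and HOXB13 had the lowest differences.

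**Figure D3:**
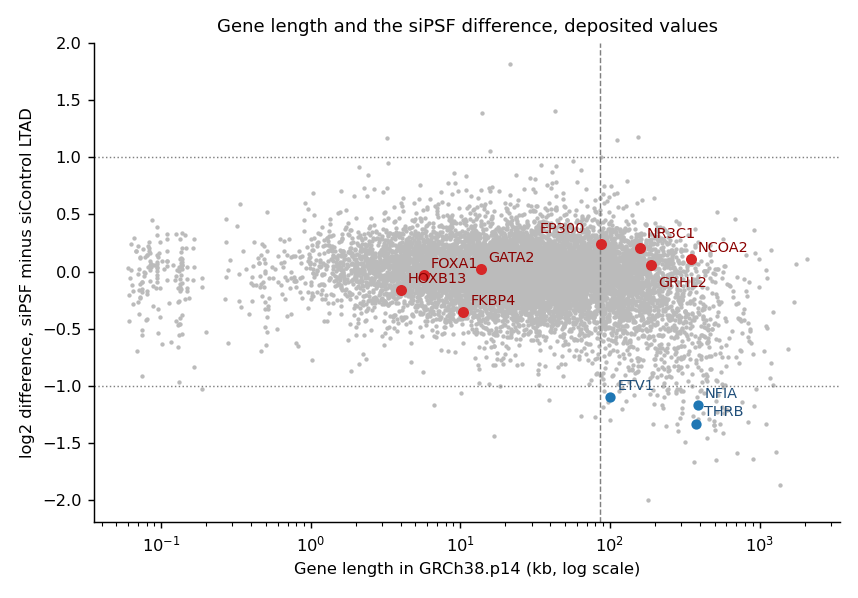
Log2 difference of siPSF minus siControl LTAD (vertical axis, deposited values) against gene length in kb (horizontal axis, log scale); grey points are kept genes, red points the 8 measured members, blue points NFIA, ETV1 and THRB, the dashed line is at 85.4 kb and dotted lines mark 2-fold. The long members NCOA2, GRHL2 and EP300, and NR3C1, which was not kept, lie just above 0, while NFIA, ETV1 and THRB lie below the lower 2-fold line.

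Cochaperones shared the direction of FKBP4. Of 19 kept genes for receptor chaperones and cochaperones, 16 were below 0 with siPSF and 3 above, with a median of -0.10 and FKBP4 lowest, where 54.1% of all kept genes were below 0. STUB1, a ubiquitin ligase that works with HSP70 and HSP90, differed by -0.34, and PTGES3, the HSP90 cochaperone p23, by -0.28. HSP90AA1 and HSP90AB1, which encode HSP90 itself, differed by -0.14 and -0.08. None of the 19 was 1.5-fold apart. Against untransfected LTAD, 16 of the 19 were above 0 after normalization and 3 on deposited values, beside 52.3% and 5.11% of all kept genes. On these scales 15 and 18 exceeded the median of all kept genes, so the direction of this list turned with the control array.

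Genes around EP300 leaned the other way. Of 23 acetyltransferases and chromatin activators, 18 were above 0 with siPSF, with a median of 0.11. Of all kept genes 45.9% were above 0, with a median of -0.02. SMARCD1, a SWI/SNF subunit, differed by 0.43 and CREBBP, the paralog of EP300, by 0.19, while KDM4C, a histone demethylase, differed by -0.51 and KAT2B by -0.47. Of 24 p160 and other coactivators, 16 were above 0 (median 0.10), with MED12, a Mediator subunit, at 0.42, NCOA1 at -0.14 and NCOA4 at 0.12. Corepressors and deacetylases had a median of 0.06 over 21 kept genes, with LCOR at 0.63 and TBL1X, a subunit of the NCOR complex, at -0.75. Lineage factors and nuclear receptors had medians that both round to 0 over 19 and 17 genes. With array medians subtracted, 16 of the 23 chromatin genes and 14 of the 24 coactivators were above 0, and 17 of the 19 chaperones below. Of all kept genes 34.7% were then above 0 and 65.3% below. Against untransfected LTAD after normalization, 13 of the 23 chromatin genes were above 0, with a median of 0.03 beside 0.03 for all kept genes. Of the 24 coactivators 14 were above 0, with a median of 0.20, where 52.3% of all kept genes were above 0. The lean of the chromatin genes was thus seen with the siControl array and not with the untransfected one. The coactivator median lay above that of all kept genes with either array.

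Although NR3C1 read low, genes known to be induced by glucocorticoids were mostly higher with siPSF. Of 15 kept, 13 were above 0, on all 3 scales, and the deposited median was 0.27 against -0.02 for all kept genes. Of all kept genes, 45.9% were above 0 as deposited and 34.7% with array medians subtracted. The 2 below 0 were FOXO3 at -0.52 and SNAI2 at -0.06. NFKBIA, the inhibitor of NF-kappaB, read 9.65 with siPSF and 8.92 with siControl, a difference of 0.73. The metallothioneins MT2A and MT1X differed by 0.60 and 0.54, DUSP1, a MAP kinase phosphatase, by 0.51 and TSC22D3, the gene of GILZ, by 0.14. None reached 2-fold, and many of these genes also answer to other signals. Against untransfected LTAD after normalization, 8 of the 15 were above 0 (median 0.04), beside 52.3% of all kept genes (median 0.03). NFKBIA and DUSP1 were then at -0.38 and -0.40 and MT2A at 0.99.

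**Figure D4:**
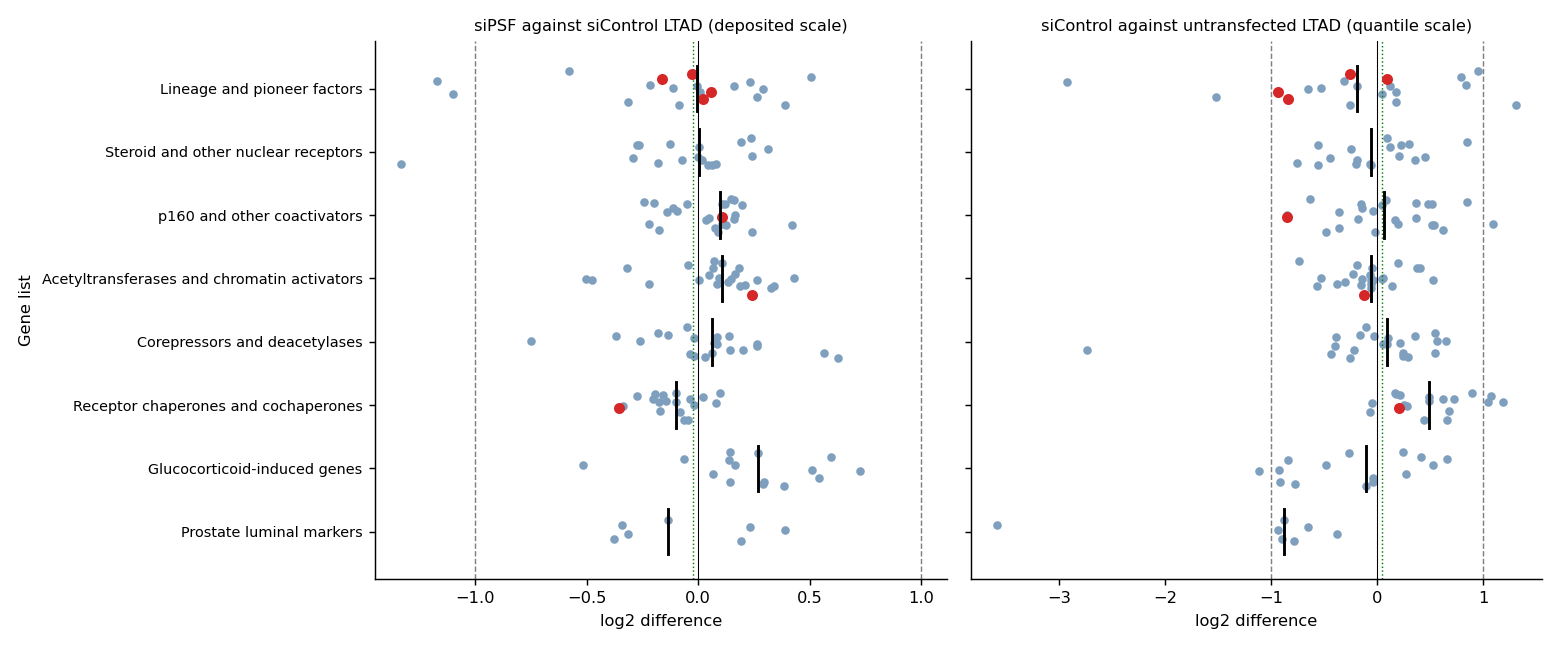
Log2 difference (horizontal axis) of each kept gene in 8 lists (vertical axis) for siPSF against siControl LTAD (left, deposited values) and siControl against untransfected LTAD (right, quantile-normalized); red points are members, black bars are list medians, the green dotted line is the median of all kept genes and dashed lines mark 2-fold. Chaperones lie mostly left of 0 in the first panel and right of it in the second, and all 7 luminal markers lie left of 0 in the second.

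The comparison of untransfected LTAD with LNCaP asked whether the androgen-deprived subline carries different levels of these genes. After normalization 7 of the 8 measured members were above 0, where 51.9% of all kept genes were. The 7 include NR3C1, whose readings may be background. The member median was 0.17 against 0.02 for all kept genes, and no member was 2-fold apart. With array medians subtracted 6 were above 0, with a median of 0.04 against -0.09 for all kept genes. NCOA2 was 1.67-fold higher in LTAD (difference 0.74) and GATA2 1.53-fold higher (0.61). The background at 2-fold was 2.27% of kept genes higher and 3.42% lower, and at 1.5-fold 6.68% higher and 8.81% lower, against 2 of 8 members at least 1.5-fold higher. Measured from the median of all kept genes, NCOA2 was at 0.72 and GATA2 at 0.60, and on deposited values at 0.675 and 0.51, the GATA2 value then being under 1.5-fold.

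GRHL2 differed by 0.20, FOXA1 by 0.19, EP300 by 0.16, HOXB13 by 0.13 and NR3C1 by 0.06 between these arrays. FKBP4 differed by -0.13, and by 0.02 on deposited values, while HOXB13 was just below 0 with array medians subtracted. Chaperones lay below 0 in 16 of 19, beside 48.1% of all kept genes, with PTGES3 at -0.44, HSPA4 at -0.42 and DNAJA2 at -0.40. On deposited values 11 of the 19 were below 0, beside 27.9% of all kept genes. On each scale 3 of the 19 exceeded the median of all kept genes.

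Among other genes of the lists, TFAP2A, an AP-2 factor of epithelial and neural crest cells, was 6.06-fold higher in untransfected LTAD, at a normalized 10.07 against 7.48 in LNCaP. EHF, an epithelial ETS factor, was 3.99-fold lower, at 9.66 against 11.66, and NCOA7, a nuclear receptor coactivator, 2.70-fold lower, at 6.72 against 8.15. PPARG, the adipogenic receptor, differed by -1.08 with the LTAD value under the filter value. NCOA1 and CREBBP, the paralogs of NCOA2 and EP300, differed by 0.17 and 0.50. TRIM24, a coactivator, differed by 0.75.

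When the siControl array stood for LTAD, the gains of NCOA2 and GATA2 over LNCaP were not seen. NCOA2 differed by -0.12 and GATA2 by -0.23 from LNCaP after normalization, though with array medians subtracted both were just above 0, at 0.10 and 0.04. GRHL2 was 1.68-fold lower in siControl than in LNCaP (-0.75), the 1 member past 1.5-fold, but at -0.46 with array medians subtracted. The background at 2-fold was 2.26% higher and 2.97% lower, and at 1.5-fold 9.18% and 8.25%. HOXB13 differed by 0.22, FOXA1 by -0.07, FKBP4 by 0.07, EP300 by 0.04 and NR3C1 by -0.01. All 5 changed sign with the scale, being below 0 on deposited values and above 0 with array medians subtracted. Both comparisons share the LNCaP array.

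Other genes of the lists that differed at 2-fold here were EHF, 11.5-fold lower at 8.13 against 11.66, NFKBIA, 2.67-fold lower at 9.32 against 10.73, and THRA, a thyroid hormone receptor, 2.34-fold higher at 9.54 against 8.31. THRA was higher by 0.48 on the deposited values. TLE1, a Groucho corepressor, and PPARG differed by -1.86 and -1.83 with siControl readings under the filter value. EHF was thus lower than in LNCaP in both LTAD arrays, whereas TFAP2A read 7.14 in siControl against 7.48 in LNCaP.

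SiControl was set against untransfected LTAD, since it shows how far arrays of a single line lie apart for these genes. GRHL2, NCOA2 and GATA2 were lower in siControl, 1.92-fold, 1.81-fold and 1.80-fold, with differences of -0.94, -0.86 and -0.84. The other 5 members lay between -0.26 and 0.21, and no member reached 2-fold. At 2-fold 5.54% of kept genes were higher and 4.32% lower, and at 1.5-fold 14.9% and 11.7%, so 3 of 8 members at least 1.5-fold lower stand beside 11.7%. Of all kept genes, 11.2% lay at least as far apart as GRHL2, 13.7% as far as NCOA2 and 14.2% as far as GATA2.

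GRHL2, NCOA2 and GATA2 were below 0 on all 3 scales, while FOXA1, EP300, HOXB13 and FKBP4 changed sign with the scale. With array medians subtracted, GRHL2, NCOA2 and GATA2 differed by -0.50, -0.49 and -0.38, each short of 1.5-fold. On that scale FKBP4 differed by 0.68, the farthest of the members, FOXA1 by 0.26 and EP300 by 0.19. On deposited values HOXB13 differed by -0.68 and FKBP4 by -0.54. Median differences over all kept genes were 0.04 after normalization, -0.92 as deposited and 0.30 with array medians subtracted. Measured from that median, GRHL2 was at -0.98 after normalization and -0.80 as deposited, NCOA2 at -0.90 and -0.79, and GATA2 at -0.89 and -0.68, each past 1.5-fold. FOXA1 was at -0.30 and -0.04, and HOXB13 at 0.05 and 0.23. The siPSF array gave the values printed above for these 3 against untransfected LTAD, but shares the untransfected array with the siControl comparison.

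For GRHL2, NCOA2 and GATA2, control and untransfected LTAD were thus as far apart as any of the 4 arrays, after normalization and as deposited. This was without an siRNA against PSF. With array medians subtracted, NCOA2 and GATA2 were farther apart between untransfected LTAD and LNCaP, at 0.59 and 0.42. The part of transfection, culture or array handling in these differences was not tested. After normalization FKBP4 was higher in siControl by 0.21 and 17 of 19 chaperones were above 0 (median 0.49), beside 53.5% of all kept genes. SUGT1 was 2.28-fold higher, PTGES3 2.11-fold and HSPH1 2.06-fold. On deposited values FKBP4 differed by -0.54 and 4 chaperones were above 0, beside 6.22% of all kept genes. All 19 exceeded the median of kept genes on that scale.

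Some other list genes differed more than any member did. TFAP2A and TLE1 differed by -2.93 and -2.74 with siControl readings under the filter value, EHF was 2.88-fold lower and NFKBIA 2.16-fold lower. CEBPB, a leucine zipper factor, was 2.48-fold higher at 9.40 against 8.08. NCOA7 was 2.13-fold higher on this scale but differed by -0.02 on deposited values. UBE3A, a ubiquitin ligase that coactivates steroid receptors, differed by -0.85, less than GRHL2 and NCOA2. NR3C2, the mineralocorticoid receptor, differed by 1.13, at levels under the filter value on all arrays. As deposited, NR3C2 read 6.47 in siControl against 6.57 in untransfected LTAD.

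Luminal markers of the labelled cell type were read across the arrays. At least KLK3 is also a receptor target, so these levels do not tell cell identity apart from receptor output. All 7 measured (KLK2, KLK3, KRT8, KRT18, ACP3, SLC45A3 and STEAP2) reached the filter value in LNCaP and untransfected LTAD, and all but KLK3 did in siControl and siPSF. Their mean normalized level was 11.13, 10.96, 9.79 and 9.75 in LNCaP, untransfected LTAD, siControl and siPSF. In siControl against LNCaP the 7 ranged from -5.42 for KLK3 to -0.23 for KRT8, so KLK3 weighs heavily in that mean. KLK3, the gene of prostate-specific antigen and a classical receptor target, read 12.89, 11.06, 7.47 and 7.11. After normalization all 7 were lower in siControl than in untransfected LTAD, with a median of -0.89 (6 of 7 with array medians subtracted), and none exceeded the median of all kept genes on any of the 3 scales.

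The luminal markers were thus lower in both transfected arrays than in untransfected LTAD, as were GATA2, GRHL2 and NCOA2. Against LNCaP, NCOA2 was not lower in siPSF, at a normalized 9.71 against 9.70. FOXA1 and HOXB13 stayed within 0.28 and 0.22 after normalization, but with array medians subtracted HOXB13 was higher in siControl than in untransfected LTAD by 0.53, as far apart as GRHL2 at -0.50. Their part in the result was not tested, and in such bulk RNA fewer cells of a type and less RNA per cell cannot be told apart. Among the 7, the luminal keratins KRT8 and KRT18 differed by -0.65 and -0.79 in siControl against untransfected LTAD after normalization. As deposited they read 11.51 and 10.99 in siControl against 12.81 and 12.44 in untransfected LTAD. The array medians were 5.98 and 7.20, so the size of these differences depends on the scale. Of the 2 kept basal genes, the keratin KRT14 differed by 0.21 and ITGB4 by -0.35 after normalization. On deposited values both were below 0, and both siControl readings were under the filter value. In that comparison the mesenchymal and stromal genes VIM, ACTA2, DCN and COL1A2 were above 0 after normalization. FN1, COL1A1, COL3A1, LUM and ZEB1 were below 0. ACTA2, DCN, COL1A2 and ZEB1 were not kept, and LUM and COL3A1 were kept through the untransfected LTAD array alone. LUM, which encodes the matrix protein lumican, read 3.78, 8.80, 3.21 and 2.97 in the same array order, high in untransfected LTAD alone. VIM, the mesenchymal filament gene, read 7.84, 7.15, 9.03 and 9.31. Of 9 mesenchymal and stromal markers, 3, 5, 3 and 3 reached the filter value, and their mean level was 6.38, 7.07, 6.71 and 6.68. Of 6 basal markers 1, 2, 0 and 0 reached it, of 7 neuroendocrine markers 2, 2, 1 and 1, and of 6 endothelial and immune markers 1, 1, 0 and 1.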

How the data were processed

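RNA from 4 groups of cells was labelled with biotin and read on 1 Affymetrix whole-transcript array each. The deposited values are log2 levels that the authors summarised by RMA (the submitters' processing notes name Affymetrix Expression Console). Its version and settings, and the arrays it treated jointly, are not given in the sources used here. Gene names came from the platform's annotation, with symbols updated by Entrez ID through the RefSeq table of GRCh38.p14 (19429 matched). Among the probe sets, 19460 had 1 symbol, 1754 had several and named no gene, and 12083 were unnamed here. A gene took its probe set of highest mean.

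Quantile normalization, differences of single arrays and counts at 2-fold and 1.5-fold were computed in Python 3.11.15 with pandas 2.3.3 and numpy 2.4.6, and checked on simulated data. The number of arrays limits the precision. Members, scales and lists were chosen with earlier results of these data known. The 8 role lists held 186 genes, of which 170 were measured. Named genes were the members and, per list and comparison, up to 3 others in each direction at 2-fold, among genes reaching the filter value in at least 1 of the arrays compared. Other list genes named are examples picked with their values in view. The rule also asked for genes with a profile like that of any member spanning 2-fold, and 0 members did after quantile normalization. Differences measured from the median of all kept genes were added after seeing the data. Alternatives were the scale, probe set rule, filter, fold limit and control array. Some genes are not reported here. Promoter windows are from RefSeq, with at least 1 for 5 of the 9 members.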

Additional observations from a re-analysis of the deposited data

How the results depend on the processing

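Values with array medians subtracted left all 32 member differences on their side of 2-fold and within 1.5-fold of the value given, as did the mean of a gene's probe sets, and quantile normalization did so for the 8 of siPSF against siControl. Signs within that range could turn, as given above. With untransfected LTAD as the control for siPSF, 3 of 8 moved by more (GATA2, GRHL2 and NCOA2), and on deposited values 16 of 24. On deposited values the member median was -0.77 in siControl against LNCaP and -1.18 in siControl against untransfected LTAD, with 1 and 5 members at least 2-fold lower where 24.6% and 43.4% of kept genes were. NCOA7 in the latter comparison was -0.016 there, and the role lists gave 0 higher and 30 lower, and 0 higher and 51 lower. The cause of these shifts was not tested beyond the array medians. Deposited values also gave 3 role-list genes higher in untransfected LTAD against LNCaP, where subtracted medians gave 5 lower, no filter 2 higher and the 75th percentile filter 1 lower. Subtracted medians gave 4 higher in siControl against LNCaP and 17 higher in siControl against untransfected LTAD, and the 75th percentile filter 4 higher in the latter. With untransfected LTAD as the control, siPSF gave 6 higher and 5 lower. At 1.5-fold, role-list genes were 3 higher for siPSF against siControl, 10 higher and 15 lower for untransfected LTAD against LNCaP, 15 and 12 for siControl against LNCaP, and 20 and 16 for siControl against untransfected LTAD, with 2 members higher, 1 lower and 3 lower in the last 3 of these. No paired analysis was possible because each group had 1 array.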

Other observations

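Genes for turnover of steroid receptors were not described above. Of 12 kept ubiquitin ligases, deubiquitinases and partners, 8 were below 0 with siPSF against siControl (median -0.06), and none was 1.5-fold apart. Of all kept genes 54.1% were below 0 (median -0.02). SKP2, an F-box protein that drives entry into S phase, had the lowest value at -0.36, and MDM2, the ligase of p53, the highest at 0.26. SPOP, the cullin 3 adaptor mutated in some prostate cancers, differed by 0.05 and its partner CUL3 by -0.35. In siControl against untransfected LTAD after quantile normalization, 10 of the 12 were above 0, beside 53.5% of all kept genes, and 8 exceeded their median. SKP2 was 2.71-fold higher and UBE2C, a mitotic ubiquitin-conjugating enzyme, 2.06-fold higher. On deposited values 2 of the 12 were above 0, beside 6.22% of all kept genes, and 11 exceeded their median. SKP2 and UBE2C then differed by 0.64 and 0.02. After normalization SPOP differed by 0.12 in siControl against untransfected LTAD and by -0.26 in untransfected LTAD against LNCaP.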
